A study of Mus musculus with 4 samples.

Results

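The ERK feedback genes described here are the dual-specificity phosphatases Dusp1, Dusp4, Dusp5 and Dusp6, the Sprouty genes Spry1, Spry2 and Spry4, and the Sprouty-related genes Spred1 and Spred2. They were taken as every probe set annotated with exactly 1 symbol among these 9 genes, which gave 24 of the 34945 probe sets with 1 symbol, or 9 of 18193 genes. The 4 samples were primary mouse embryonic fibroblasts (MEFs) at passage 3, cells grown out of embryos without immortalisation. There were 2 independent lines labelled wild type and 2 labelled RBP2-/-, with 1 Affymetrix array of total RNA for each, and titles that number the lines of each genotype (1) and (2). RBP2 is the histone H3 lysine 4 demethylase now named Kdm5a. The sources used here give no allele, litter, serum or density at harvest. The set was selected on function, with earlier results of these arrays known, among them the difference in Fos signal between lines numbered 2 and lines numbered 1. Differences by line number are therefore described here without a test, and only the comparison of genotypes is tested.

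Growth factors bound to receptor tyrosine kinases switch on the kinases Raf, MEK and ERK in turn, and active ERK induces genes within minutes to hours. Among those genes are inhibitors of the same pathway: dual-specificity phosphatases remove the phosphates that activate ERK, Sprouty proteins act between receptor and Raf, and Spred proteins hold back Ras and Raf. Because ERK induces them, the messenger RNAs of these inhibitors are often read as a measure of pathway output, as is that of the immediate early transcription factor Fos. Fos messenger RNA appears and decays faster than most of the feedback transcripts and also answers to other signals.

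By line number, the feedback genes and Fos did not move together. Fos was 9.43-fold higher in lines numbered 2 than in lines numbered 1, while 6 of the 9 feedback genes were lower in both lines numbered 2 than in both lines numbered 1: Dusp4, Dusp5, Dusp6, Spry1, Spry2 and Spry4. On the brightest probe sets Dusp1 alone of the 9 lay the way of Fos, at 1.34-fold, and Spred1 and Spred2 overlapped. The next brightest Spred1 probe set also lay the way of Fos, at 1.26-fold. Among all 27023 probe sets kept, both arrays numbered 2 lay above both numbered 1 for 20.3% and below for 20.7%. Nothing is read from these counts about the 9 genes, since this difference was known when they were proposed. By genotype, none of the 9 genes passed the test: 0 of their 20 kept probe sets had a limma adjusted p under 0.05, against 0.00370% of all kept probe sets, which is 1 probe set, of the chemokine gene Cxcl12.

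**Figure D1:**
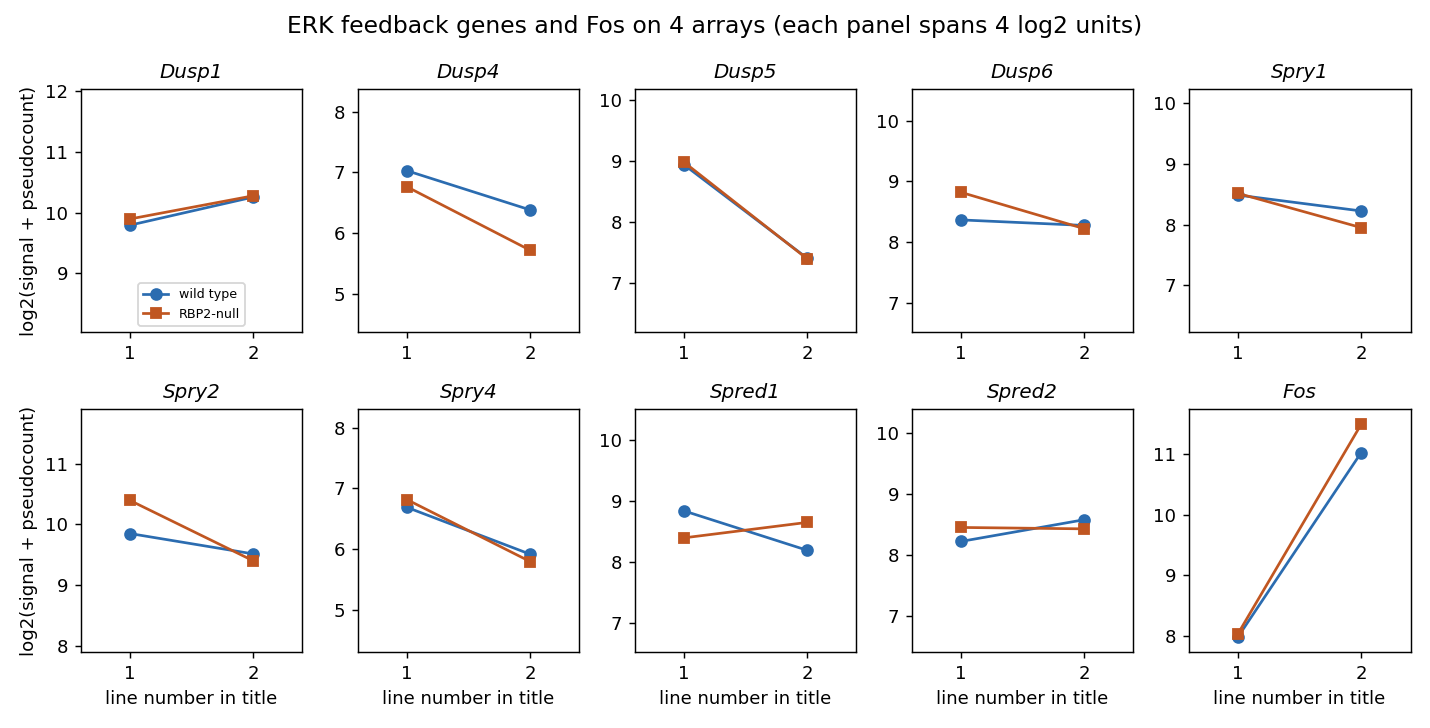
Normalized log2 signal (vertical axis, log2 of signal plus 9) of the brightest probe set of each feedback gene and of Fos, by the line number in the sample title (horizontal axis). Circles are the wild-type arrays and squares the RBP2-null arrays, 1 array a point, joined only to show genotype; every panel spans 4 log2 units. Fos and Dusp1 are higher in both lines numbered 2, and Dusp4, Dusp5, Dusp6, Spry1, Spry2 and Spry4 are lower in both.

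Signals are given below after quantile normalization, which brings the arrays to a common distribution, and differences are on the scale of log2(signal + 9). As deposited the arrays differed in brightness, with median signals of 22.7 and 29.4 for wild-type lines 1 and 2 and of 21.5 and 43.7 for RBP2-null lines 1 and 2, so the array numbered 2 was the brighter of each genotype. With arrays only centred on their medians over all probe sets but the controls, the median of all kept probe sets lay at 0.20 by line number and at 0.19 by genotype. Without scaling these shifts were 0.73 and 0.39, and values under either setting are given relative to them. Where genes are counted below by their order with arrays centred on their medians, the medians are those of the kept probe sets. Wild-type replicate 1 stood apart, with a correlation across probe sets of at most 0.925 with any other array, where RBP2-null replicate 1 reached 0.949 and the arrays numbered 2 reached 0.963 with each other. The numbers in the analysis names of the labels rise from both arrays of lines numbered 1 to both of lines numbered 2, so line number and that order cannot be told apart. Xist, transcribed from the inactive X chromosome of female cells, had a signal of 1635 in wild-type replicate 1 and 1196 in RBP2-null replicate 2, against 65.3 in wild-type replicate 2 and 49.9 in RBP2-null replicate 1. Each line number and each genotype thus held 1 line high and 1 line low in Xist. On its brightest probe set the targeted gene Kdm5a read 96.5 and 191 in wild type and 75.5 and 80.7 in RBP2-null cells, and its log2 fold change, -0.74 (SE 0.34), did not pass. Whether that probe set lies in the deleted part of the gene is not known here.

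Fos itself, the reference for the comparison by line number, encodes a subunit of the transcription factor AP-1. Its 1 probe set had a signal of 245 in wild-type replicate 1, 255 in RBP2-null replicate 1, 2069 in wild-type replicate 2 and 2860 in RBP2-null replicate 2. The groups by line number lay far apart, and the genotypes overlapped across line numbers. RBP2-null was the higher by 0.053 on the log2 scale among lines numbered 1 and by 0.47 among lines numbered 2, 1 array against 1. The log2 difference, lines numbered 2 minus lines numbered 1, was 3.24 with a standard error of 0.18. It was 3.03 between the wild-type lines and 3.44 between the RBP2-null lines. As background to that comparison, 1 of 27023 probe sets, or 0.00370%, had a limma adjusted p under 0.05 by line number and 9.41% had an unadjusted p under 0.05; the 1 was that of Fos, whose difference was known when the set was selected, so nothing is read from it.

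Dusp5, a nuclear phosphatase specific to ERK, differed most among the 9 genes by line number. The signal of its probe set was 483 and 497 in wild-type and RBP2-null replicate 1 and 160 and 159 in wild-type and RBP2-null replicate 2. The lines numbered 1 were thus about alike and high, the lines numbered 2 about alike and low, and wild-type and RBP2-null lines lay close within either pair. On the log2 scale the level was 8.96 ± 0.030 (SD, n = 2) in lines numbered 1 and 7.40 ± 0.007 (SD, n = 2) in lines numbered 2. The log2 difference was -1.56 with a standard error of 0.18, so that the lines numbered 1 were 2.96-fold higher. It was -1.54 between the wild-type lines and -1.59 between the RBP2-null lines, and it stayed between -1.60 and -1.52 with any 1 array left out. Of all 27023 kept probe sets, 48 had a difference at or below that of Dusp5, its own included.

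Dusp1, a nuclear phosphatase that acts on ERK and on the stress-activated kinases, is an immediate early gene like Fos. Its signal was 879 and 944 in wild-type and RBP2-null replicate 1 and 1214 and 1232 in wild-type and RBP2-null replicate 2. The lines numbered 2 were higher in both genotypes, and the order of the 4 arrays was that of Fos, the only such order among the brightest probe sets of the 9 genes. It was also the order of the deposited mean signals, trimmed by 2% at each end: 61.7 and 77.9 in wild-type and RBP2-null replicate 1, then 101 and 152 in wild-type and RBP2-null replicate 2. Genes outside the set, such as Col3a1, Fgfr1 and Met, had that order too, and its share of all probe sets is not given here. The log2 difference was 0.42 with a standard error of 0.14, within 0.37 and 0.47 with any 1 array left out. The rise of Dusp1 by line number was therefore small beside that of Fos, at 1.34-fold against 9.43-fold.

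Because Dusp1 and Dusp5 lay on opposite sides by line number, the 250 bases before their starts are shown with those of Fos, from the RefSeq promoter table of build GRCm38.p6. The table had an entry used here for 7 of the 9 genes, all but Dusp4 and Spry4. Capitals mark matches on either strand to the cyclic AMP response element TGACGTCA, to its half-site TGACG, which every full element also holds, or to the serum response factor site known as the CArG box. The Dusp1 window is chr17:26508473-26508722 on the minus strand, the Dusp5 window chr19:53528895-53529144 on the plus strand, and the Fos window chr12:85473640-85473889 on the plus strand.
Dusp1: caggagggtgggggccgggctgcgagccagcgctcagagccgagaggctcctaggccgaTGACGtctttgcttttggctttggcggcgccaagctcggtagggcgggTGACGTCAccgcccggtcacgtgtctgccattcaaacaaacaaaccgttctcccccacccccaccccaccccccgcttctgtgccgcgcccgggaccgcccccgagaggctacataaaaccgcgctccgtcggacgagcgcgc
Dusp5: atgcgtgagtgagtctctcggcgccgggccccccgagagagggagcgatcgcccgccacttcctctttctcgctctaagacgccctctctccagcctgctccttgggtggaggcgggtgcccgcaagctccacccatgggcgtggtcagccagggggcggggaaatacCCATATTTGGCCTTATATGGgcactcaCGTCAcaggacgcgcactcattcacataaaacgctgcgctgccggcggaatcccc
Fos: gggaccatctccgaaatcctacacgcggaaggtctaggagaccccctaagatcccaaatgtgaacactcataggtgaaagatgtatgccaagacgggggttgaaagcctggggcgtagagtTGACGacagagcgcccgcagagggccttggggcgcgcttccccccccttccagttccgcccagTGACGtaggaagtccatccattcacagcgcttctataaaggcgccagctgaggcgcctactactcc
The Dusp1 window held 1 full cyclic AMP response element, 143 to 136 bases before the start, and a further half-site 191 to 187 bases before it. The Dusp5 window held 2 adjoining CArG boxes, 82 to 73 and 72 to 63 bases before the start, and 1 half-site. The Fos window held 2 half-sites. Bases further than 250 from a start were not searched, so a motif absent from a window may lie beyond it. Of all 32851 windows of this length in the table, 1.55% held the full element, 17.8% the half-site and 1.47% a CArG box. The AP-1 site TGANTCA, found in 6.75% of all windows, was in none of these 8 windows, that of Fos included. The same held for the string CCGGAA, 1 form of the ETS factor site, found in 12.0%. Other forms of the ETS site were not searched, and the shorter string GGAA does occur in the Fos window. Apart from the half-site in the Spred2 window, the windows of Dusp6, Spry1, Spry2, Spred1 and Spred2 had no match to any of these motifs. A match is a string of letters and not a site shown to be used.

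Dusp6, a cytoplasmic phosphatase specific to ERK and among the transcripts most often used to read ERK activity, had a signal of 321 and 443 in wild-type and RBP2-null replicate 1 and 301 and 290 in wild-type and RBP2-null replicate 2. RBP2-null replicate 1 was the high array, and the other arrays lay close together. The log2 difference by line number was -0.34 with a standard error of 0.20, made up of -0.091 between the wild-type lines and -0.60 between the RBP2-null lines. Without RBP2-null replicate 1 it was -0.12, without wild-type replicate 1 it was -0.58, and with each array centred on the median of the kept probe sets it was -0.27 and the arrays of the 2 line numbers overlapped. Dusp4, an inducible nuclear phosphatase, had a signal of 122 and 99.7 in wild-type and RBP2-null replicate 1 and 74.6 and 43.8 in wild-type and RBP2-null replicate 2. RBP2-null replicate 2 was the low array, and both lines numbered 2 lay below both lines numbered 1. The log2 difference of Dusp4 by line number was -0.84 with a standard error of 0.30, between -1.17 and -0.49 with any 1 array left out, the latter without RBP2-null replicate 2.

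The Sprouty genes were lower in both lines numbered 2 on their brightest probe sets. Spry2 had a signal of 914 and 1338 in wild-type and RBP2-null replicate 1 and 723 and 668 in wild-type and RBP2-null replicate 2. The RBP2-null line numbered 1 was highest here, as it was for Dusp6. The log2 difference of Spry2 by line number was -0.66 with a standard error of 0.20, which was -0.33 between the wild-type lines and -0.99 between the RBP2-null lines. It was -0.38 without RBP2-null replicate 1 and -0.93 without wild-type replicate 1. The other Spry2 probe set fell below the filter, with a signal between 4.08 and 13.1.

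Spry1 had a signal of 349 and 356 in wild-type and RBP2-null replicate 1 and 290 and 238 in wild-type and RBP2-null replicate 2. The lines numbered 1 were nearly level and the lines numbered 2 were below them. Its log2 difference by line number was -0.41 with a standard error of 0.19.

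Spry4 had 4 probe sets, of which 3 were kept, and they did not read alike. The brightest had a signal of 94.2 and 104 in wild-type and RBP2-null replicate 1 and 51.5 and 46.6 in wild-type and RBP2-null replicate 2, a log2 difference of -0.89 with a standard error of 0.26. The groups by line number did not overlap on it. The next read 38.8 and 49.9 in wild type and 99.0 and 68.0 in RBP2-null cells, line 1 first. On this one the genotypes did not overlap, with RBP2-null the higher, while the line numbers overlapped, with a difference of -0.093. The dimmest kept probe set had a log2 difference by line number of 0.056 with a standard error of 0.58, and averaged over the 3 the value for Spry4 was -0.31. The lower level in lines numbered 2 thus rests on 1 of the 3 kept Spry4 probe sets.

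**Figure D2:**
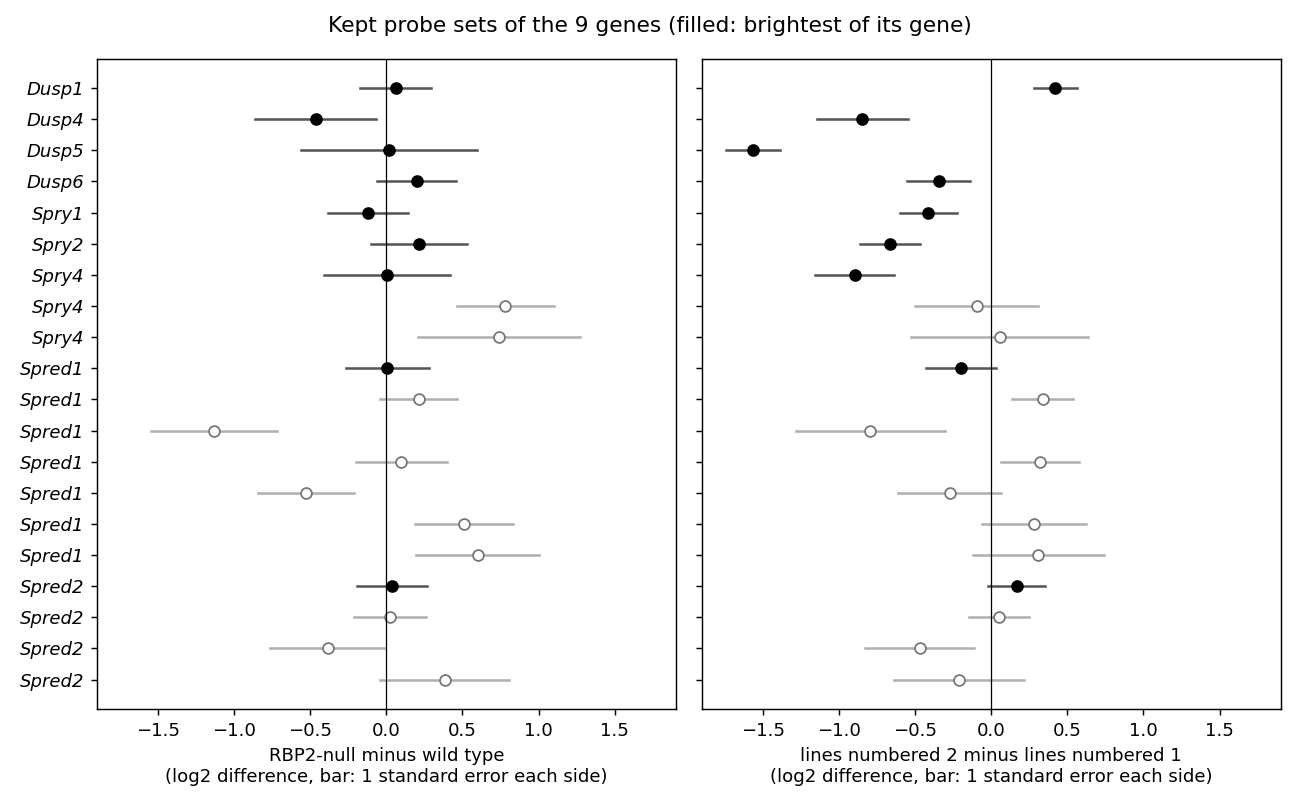
Log2 difference of the 20 kept probe sets of the 9 genes (rows), RBP2-null minus wild type on the left and lines numbered 2 minus lines numbered 1 on the right, with bars of 1 standard error on each side from the limma fit to 4 arrays. Filled points are the brightest probe set of each gene; by line number Dusp5 lies lowest, at -1.56, and Dusp1 is the highest filled point, at 0.42.

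The Spred genes showed no common direction by line number. Spred1 had 8 probe sets, of which 7 were kept, and their log2 differences ran from -0.79 to 0.34. Its brightest probe set read 448 and 283 in wild type and 327 and 392 in RBP2-null cells, line 1 first, so that the lines numbered 2 were lower in wild type and higher in RBP2-null cells. This probe set is of a kind that can bind several transcripts. Without probe sets of that kind the value for Spred1 was 0.34, in place of -0.20. That next brightest probe set had a signal of 220 and 292 in wild-type and RBP2-null replicate 1 and 319 and 326 in wild-type and RBP2-null replicate 2, with wild-type replicate 1 lowest. Both lines numbered 2 were higher on it, and the order of the 4 arrays was that of Fos and of the trimmed mean deposited signals. A dimmer Spred1 probe set, at 0.32, also lay higher in both, and the other kept ones overlapped by line number. Spred2 had 5 probe sets, 4 of them kept, with log2 differences from -0.47 to 0.17. The brightest read 290 and 374 in wild type and 341 and 336 in RBP2-null cells, line 1 first, a difference by line number of 0.17 with a standard error of 0.18. Neither Spred gene was ordered by line number on its brightest probe set.

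Over the 9 genes, on the brightest probe set of each, the median log2 difference by line number was -0.41, with 7 below 0 and 2 above, beside a median of -0.00019 over all kept probe sets. It was -0.58 without wild-type replicate 1. Over the 20 kept probe sets, 7 lay lower in both lines numbered 2, 3 lay higher and 10 overlapped, where 41.0% of all kept probe sets did not overlap. With arrays centred on their medians 5 of the 9 genes lay lower, 1 lay higher and 3 overlapped, Dusp6 having joined Spred1 and Spred2.

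**Figure D3:**
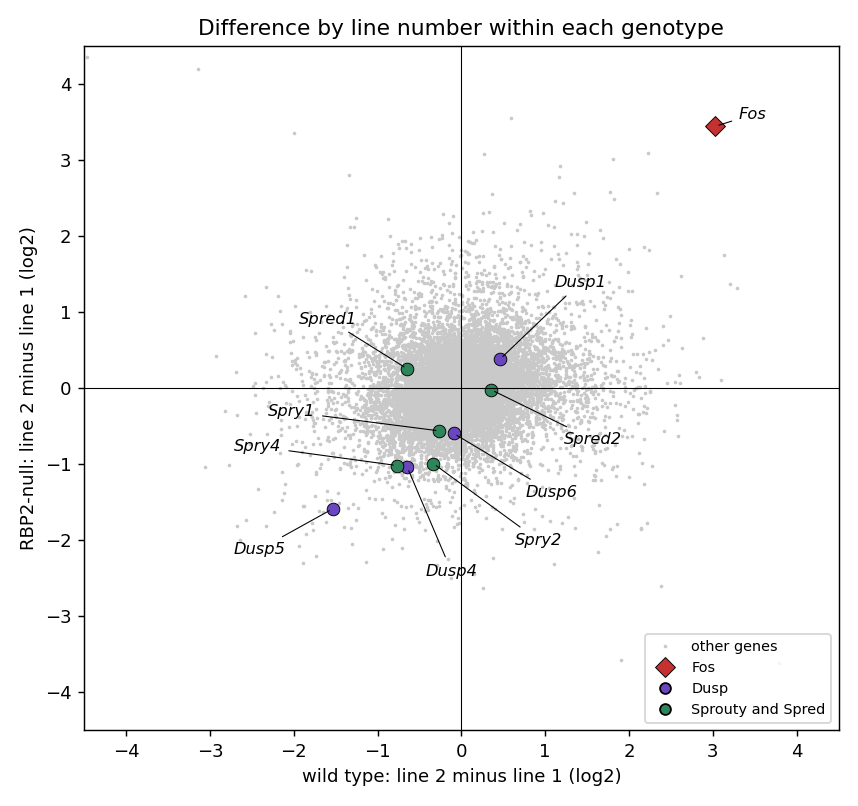
Log2 difference between the line numbered 2 and the line numbered 1 in wild type (horizontal axis) and in RBP2-null cells (vertical axis), for the brightest kept probe set of 13115 genes, each point resting on 4 arrays. Grey points are other genes; Fos lies at the upper right, at 3.03 and 3.44, Dusp1 lies above 0 on both axes, and Dusp4, Dusp5, Dusp6, Spry1, Spry2 and Spry4 lie below 0 on both.

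The genotype comparison asks whether loss of RBP2 shifts the feedback genes. On their brightest probe sets the log2 fold change, RBP2-null minus wild type, lay between -0.46, for Dusp4, and 0.22, for Spry2. The median was 0.016 over the 9 genes, with 7 above 0 and 2 below, beside 0.0029 over all kept probe sets. RBP2-null and wild-type arrays overlapped for all 9, where 29.5% of all kept probe sets did not overlap. Each of the 20 kept probe sets had a limma adjusted p of 1.00, and 2 of 20 had an unadjusted p under 0.05, against 2.96% of all kept probe sets. These were the second Spry4 probe set, at 0.78 with a standard error of 0.32, and a Spred1 probe set that can bind several transcripts, at -1.13 with a standard error of 0.41. The Spred1 one read 182 in wild-type replicate 1 and 71.6 in wild-type replicate 2, against 54.9 and 41.5 in RBP2-null cells. It passed only with wild-type replicate 2 left out, at -1.74 on the log2 scale (limma adjusted p = 0.0440), and other Spred1 probe sets ran from -0.53 to 0.60.

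With 4 arrays the intervals were wide, and 0 of 20 past the threshold does not show that the genotypes were alike. For Dusp1 the 95% interval, not adjusted for the number of probe sets, of the fold change by genotype ran from -0.46 to 0.59, for Dusp6 from -0.39 to 0.79 and for Spry1 from -0.72 to 0.48. For Dusp5 it ran from -1.30 to 1.33, since the difference by line number lies inside each genotype. Dusp6 and Spry2 were higher in the RBP2-null line than in the wild-type line among lines numbered 1, by 0.45 and 0.54, and differed by -0.053 and -0.11 among lines numbered 2. Each of these values sets 1 array against 1 and has no test. For Dusp5 the same differences were 0.042 and -0.010.

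Genes known to respond to ERK, listed by name with Fos among them, lay on both sides by line number. Of 21 listed, 20 had a probe set and all 20 were kept; 7 lay higher in both lines numbered 2, 5 lay lower and 8 overlapped, with a median of 0.15. The list was written with the difference in Fos known, so these counts are a description. The 7 were Fos, Fosb, Jun, Junb, Egr1, Nr4a1 and Ier2, and they were named after their values were seen, as were the next 5. All 7 are immediate early genes, but so are others of the list that did not lie higher: Egr2 and Egr3 overlapped, at -0.19 and 0.36, and Myc and Ier3 lay lower. Fosb, a partner in AP-1, had a signal of 35.3 and 55.5 in wild-type and RBP2-null replicate 1 and 214 and 371 in wild-type and RBP2-null replicate 2, a log2 difference of 2.44 with a standard error of 0.32. Nr4a1, an orphan nuclear receptor, had 320 and 329 in wild-type and RBP2-null replicate 1 and 852 and 939 in wild-type and RBP2-null replicate 2, a difference of 1.44 with a standard error of 0.16. Jun, Egr1, Ier2 and Junb had log2 differences of 1.34, 0.69, 0.64 and 0.44.

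The 5 that lay lower were Phlda1, Myc, Epha2, Plaur and Ier3, with log2 differences by line number of -0.79, -0.49, -0.42, -0.36 and -0.24. Phlda1, whose transcript is used with Dusp6 and the Sprouty genes to score ERK output, had a signal of 500 and 455 in wild-type and RBP2-null replicate 1 and 258 and 286 in wild-type and RBP2-null replicate 2. With arrays centred on their medians the same 7 genes lay higher and only Phlda1 and Myc lay lower. Other genes of the list, also named after their values were seen, overlapped by line number: the ETS factor Etv5 had 0.20, its relative Etv4 had 0.70, Ccnd1, the G1 cyclin, had -0.19, and the ephrin receptor gene Epha4 had -0.20. The AP-1 gene Fosl1, which accumulates under lasting ERK activity, overlapped too, at -0.073. Etv4, Ccnd1, Epha4, Fosl1, Egr2 and Hmga2 had opposite signs in the 2 genotypes. Etv4 had a signal of 6.925 in wild-type replicate 1, below the pseudocount. By genotype 0 of the 20 passed and 2 had an unadjusted limma p under 0.05, those of Etv5 and of Hmga2, a chromatin protein gene with a log2 fold change of 0.55. The widest log2 fold changes were 1.16 for Etv4, 0.66 for Fosb and 0.60 for Etv5, with standard errors of 0.60, 0.87 and 0.26.

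**Figure D4:**
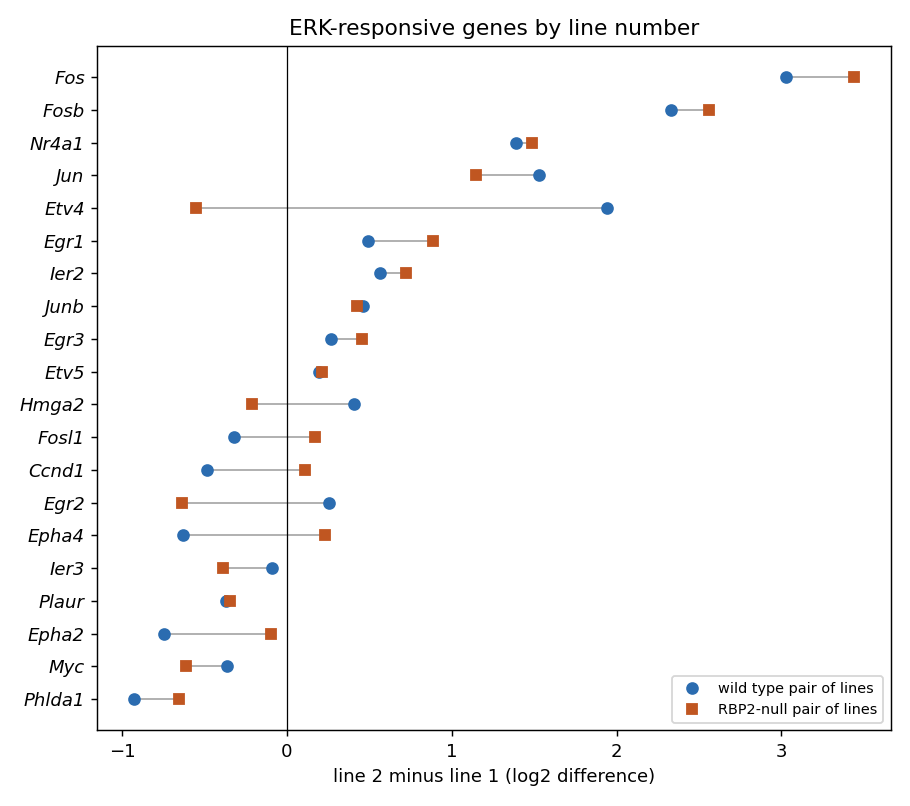
Log2 difference between the line numbered 2 and the line numbered 1 (horizontal axis) for 20 ERK-responsive genes (rows), circles for the wild-type pair and squares for the RBP2-null pair, 1 array against 1 for each point, and grey bars joining the points of a gene. Fos, Fosb, Nr4a1 and Jun lie above 1 in both genotypes, Phlda1 lies lowest, and Etv4, Ccnd1, Epha4, Fosl1, Egr2 and Hmga2 fall on opposite sides of 0.

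Other inhibitors of receptor and ERK signalling did not share 1 direction by line number. Of 15 listed, 13 were kept; 4 lay higher in both lines numbered 2, 4 lay lower and 5 overlapped, with a median of 0.18. With arrays centred on their medians 4 lay higher, 3 lower and 6 overlapped. Dusp10 and Dusp16, which act mainly on the stress-activated kinases, had log2 differences of 0.80 and 1.00, the latter made up of 1.95 between the wild-type lines and 0.063 between the RBP2-null lines. Dusp16 read 15.0 in wild-type replicate 1, against 83.4 in wild-type replicate 2 and 82.6 and 86.7 in RBP2-null cells. Dusp2, a nuclear phosphatase, had -1.03, from a signal of 47.0 and 43.2 in wild-type and RBP2-null replicate 1 and 8.78 and 30.2 in wild-type and RBP2-null replicate 2. This was made up of -1.66 between the wild-type lines and -0.41 between the RBP2-null lines, and the 8.78 lies below the pseudocount. By genotype 0 of the 13 passed a limma adjusted p of 0.05 and 0 had an unadjusted p under 0.05. Of the 13, 12 lay above 0 and 1 below, with a median of 0.19 beside 0.0029 over all kept probe sets. The widest fold changes, those of Dusp16, Dusp2 and Dusp8, were 0.99, 0.52 and 0.47 with standard errors of 0.55, 0.57 and 0.43. Among lines numbered 1 the same genes had 1.93, -0.10 and 0.91, and among lines numbered 2 they had 0.050, 1.14 and 0.041, 1 array against 1.

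The genes of the Ras-ERK cascade itself lay on both sides by line number. Of 20 listed, 13 had a probe set named here, and all 13 were kept; by line number 3 lay higher, 4 lower and 6 overlapped, with a median of -0.19, and the counts were the same with arrays centred on their medians. Map2k2, which encodes a MEK kinase, had a log2 difference of 0.73 by line number, the scaffold Ksr1 had -0.42 and the adaptor Shc1 had -0.35. Map2k2 had 1.24 between the wild-type lines and 0.22 between the RBP2-null lines. By genotype 0 of 13 passed and 1 had an unadjusted limma p under 0.05, the Ras activator Sos2, at 0.83 with a standard error of 0.26. Ksr1 and Nras had 0.36 and -0.31.

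Among receptors that feed the cascade, Pdgfra, the alpha receptor of platelet-derived growth factor, differed most by line number. Its signal was 43.7 and 168 in wild-type and RBP2-null replicate 1 and 479 and 448 in wild-type and RBP2-null replicate 2, a log2 difference of 2.29 with a standard error of 0.47. Wild-type replicate 1 was lowest, and the difference between the RBP2-null lines alone was 1.37. The FGF receptor Fgfr1 had 0.77 by line number and the HGF receptor Met had 0.72. Of the 8 receptors listed 7 were kept, of which 4 lay higher in both lines numbered 2, 2 lay lower and 1 overlapped, or 4, 1 and 2 with arrays centred on their medians. By genotype 0 of 7 passed a limma adjusted p of 0.05, 0 had an unadjusted p under 0.05, and Pdgfra, Met and Pdgfrb had 0.83, 0.69 and -0.24.

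The gene whose pattern was compared with all others was Dusp6. By the distance between log2 profiles centred on each gene's mean over 4 arrays, the closest of 13115 genes, the feedback genes left aside, were Nudt22, Scamp2, Smad7, Mllt11 and Mtg1, at 0.031, 0.037, 0.046, 0.046 and 0.051. All 5 were highest in RBP2-null replicate 1, as Dusp6 was. Among the feedback genes Spry2 was closest to Dusp6 by that distance, at 0.33, then Spry1 at 0.35, and Dusp5 was farthest at 1.25. These distances rest on 4 arrays and are a description.

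Fibroblast markers were bright in every line: signal ran from 6182 to 7270 for Col1a1, from 8685 to 9964 for Vim and from 7126 to 8224 for Fn1. Of the 8 listed Pdgfrb was dimmest, from 432 to 693. Col3a1, Pdgfrb and S100a4 lay higher in both lines numbered 2, 1 lay lower and 4 overlapped, or 2, 3 and 3 with arrays centred on their medians. The summed signal of the 8 was 40065 and 41112 in wild-type and RBP2-null replicate 1 and 43837 and 44178 in wild-type and RBP2-null replicate 2. Of 28 markers of other cell types with a probe set, 8 were too dim to be kept, among them Cdh1, Pecam1, Ptprc, Sox2 and Myog; none of these 8 exceeded 29.7 on any array, and no marker was listed at 0. The other 20 were kept, and some were well above that: Epcam ran from 306 to 599, Map2 from 177 to 409, Csf1r from 110 to 142 and Sox10 from 68.2 to 119. The Epcam probe set is of a kind that can bind several transcripts, and the epithelial markers Krt8 and Krt18 ran from 49.8 to 68.0 and from 36.7 to 61.1. All 4 kept leukocyte markers of 6 were lower in lines numbered 2 on average, and the summed signal of the 6 was 377 and 226 in wild-type and RBP2-null replicate 1 and 266 and 240 in wild-type and RBP2-null replicate 2, which overlap. For 5 endothelial markers it was 179 and 198 in wild-type and RBP2-null replicate 1 and 127 and 141 in wild-type and RBP2-null replicate 2. Emcn made up that drop, at 69.6 and 86.1 against 7.70 and 21.6, while Kdr was higher in both lines numbered 2. For 5 neural markers it was 324 and 389 in wild-type and RBP2-null replicate 1 and 518 and 554 in wild-type and RBP2-null replicate 2. Map2 made up most of that rise, at 177 and 244 against 357 and 409, while Sox10 was lower in both lines numbered 2. Their part in the differences by line number was not tested. The sums of 5 epithelial, 4 skeletal muscle and 3 erythroid markers overlapped between line numbers. In RNA from whole cultures, fewer cells of a type and less RNA per cell cannot be told apart.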

How the data were processed

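Each array comes as deposited linear intensities, 1 for each of 45101 probe sets; the sources used here do not say how the authors summarised probes or corrected background. The 64 Affymetrix controls were left out. Because trimmed means (2% off each end) differed by 2.46 times, above the 10% set as the limit, arrays were quantile normalized. Before log2 a pseudocount of 9 was added (the rounded 25th percentile), which understates differences of dim probe sets. The upper 60% by mean signal, 27023 probe sets, were kept. Genotypes were compared in limma 3.58.1 (R 4.3.3; lmFit, eBayes with mean-dependent prior variance), two-sided, with Benjamini-Hochberg adjustment over all kept probe sets and a threshold of 0.05. Lines numbered 2 and 1 were fitted in the same way; as this difference was known when the genes were chosen, calls from that fit are given as counts and not as tests. Whether the lines come from separate embryos or litters is not stated beyond their being independent, and p-values speak of these lines' spread alone; 4 arrays limit every precision. With 2 lines a group, an exact permutation p is at least 0.333.

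The brightest kept probe set stands for a gene. From each list, up to 3 genes with the widest difference in either comparison are named. Genes and lists were chosen with earlier results of these data known. The genotype fit was tested on simulated data with 200 changed probe sets a run. It called 0.157% of changes of 1 log2 unit, 34.5% of changes of 2 and 62.8% of changes of 3. Of its calls 6.32% were false, so it misses most changes of the size seen here. Alternatives covered pseudocount, filter, scaling, variance model, probe set choice, threshold, genotype or replicate number as a block, and each array left out. Gene symbols came from the platform annotation, and promoter sequences from RefSeq.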

Additional observations from a re-analysis of the deposited data

How the results depend on the processing

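By genotype the number of probe sets past the threshold was 1, and it was 0 without the filter, without scaling and with 1 prior variance, 2 with median-centred arrays and between 0 and 82 with 1 array left out. By line number it was 1, and it was 11 with a pseudocount of 32, 16 with the upper 40% kept, 25 with median-centred arrays, 605 without scaling, 0 with 1 prior variance, 28 at a threshold of 0.1, 547 with genotype as a block and between 1 and 1244 with 1 array left out, the last without RBP2-null replicate 1. Without wild-type replicate 1 it was 295, and by genotype the 82 came without wild-type replicate 2. Feedback probe sets past the threshold by genotype numbered between 0 and 1 with 1 array left out, and 0 in every other setting. By line number they numbered 1 with a pseudocount of 32, with the upper 40% kept and at a threshold of 0.1, 2 with genotype as a block, and between 0 and 2 with 1 array left out. Dusp5 was among them wherever the number was above 0; with wild-type replicate 2 or RBP2-null replicate 2 left out it was 0. These counts by line number are no tests. The causes were not tested.

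The numbers in the titles were not taken as pairs: deviations from the genotype means of same-numbered arrays correlated at 0.11 across kept probe sets, with 2 numbers only and no label that ties them. With the replicate number as a block 46 probe sets passed by genotype, 0 of them feedback genes.

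The median difference by line number over the 9 genes lay between -0.58 and -0.39 with 1 array left out, and the number of genes lower in both lines numbered 2 between 5 and 7 over all settings. By genotype, values so near 0 changed sign with single arrays left out: they ranged from -0.17 to 0.29 for Dusp1, -0.99 to 0.050 for Dusp4, -0.77 to 0.81 for Dusp5, -0.097 to 0.50 for Dusp6, -0.40 to 0.16 for Spry1, -0.27 to 0.72 for Spry2, -0.51 to 0.49 for Spry4, -0.32 to 0.34 for Spred1, -0.14 to 0.22 for Spred2 and -1.49 to 1.95 for Fos. Spry4, at 0.0033, had -0.0012 with a pseudocount of 1 and -0.023 with median-centred arrays or without scaling. With each array centred on the median of the kept probe sets it had 0.011. By line number Dusp1, Dusp4, Dusp5, Dusp6, Spry1, Spry2, Spry4 and Fos kept their sign in all 14 alternatives. Probe sets near the pseudocount, such as those of Spry4 other than the brightest, are limited by signal over background.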
